A study of Mus musculus with 38 samples.

Results

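Interferon-stimulated genes are the genes that cells switch on when interferon reaches them. A list of 43 symbols of this class was looked up in the deposited RNA tables, and 42 of them were found in all 7 RNA groups, among 11441 distinct symbols in the GC-normalized tables, 20650 in the inhibitor tables and 20605 in the plasma cell tables. The tables write mouse symbols in capitals, such as IFNAR1, STAT2, ISG15 and GBP2. The rule takes members by symbol and uses no measured value, but the symbols were chosen with earlier results of these data known. The symbol Herc6 is not listed. The files list a symbol Herc5, which the RefSeq gene table gives as a synonym of mouse Herc6, a ligase that attaches Isg15 to proteins. It is described below but not counted.

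Type I interferons are sensed by a receptor of the subunits Ifnar1 and Ifnar2, which activates the kinases Jak1 and Tyk2. These phosphorylate Stat2, which joins Irf9 in a complex that binds a DNA element, the interferon-stimulated response element, in front of many genes. The products sense viral RNA, degrade or edit it, stop its translation, attach the ubiquitin-like protein Isg15 to other proteins, disrupt pathogen membranes and vacuoles, and load peptides for T cells. Lipopolysaccharide (LPS), which comes from the outer membrane of bacteria and acts through Tlr4, can start the same pathway by inducing interferon beta. Blimp1, encoded by Prdm1, is the transcriptional repressor that drives plasma cell formation, and its DNA recognition sequence resembles that of interferon regulatory factors.

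RNA was sequenced from mouse B cells of the C57BL/6 strain in 7 groups of 2 libraries. All animals carried a GFP allele in Blimp1, controls included, so that GFP reports Blimp1 expression. Blimp1-deficient pre-plasmablasts had the genotype Blimp1(GFP/fl) Cd23(Cre/+), in which Cre made from the mature B cell gene Cd23 deletes the floxed allele, and were sorted as CD138–GFP+CD22hi. Activated B cells (CD138–GFP–), GFP+ control pre-plasmablasts that lacked CD138, and plasmablasts positive for both had the genotype Blimp1(GFP/+) Cd23(Cre/+). All 4 groups were cultured for 4 days with LPS. Another pair of pre-plasmablast groups received either GSK343, which blocks the H3K27 methyltransferase EZH2, or DMSO as vehicle, and were Blimp1(GFP/+), had the same 4-day LPS culture and were sorted as CD138–GFP+. Plasma cells, Blimp1(GFP/+), were sorted straight from mice as CD28+CD138+GFP+Lin-.

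Prdm1 stood at 199 and 171 RPKM (reads scaled to transcript length and library size) in Blimp1-deficient pre-plasmablasts, against 429 and 327 RPKM in control pre-plasmablasts. The gene-level value can also count transcripts of the GFP allele and of undeleted parts, so it is no check of the deletion. Pax5, the factor that maintains B cell identity, was at 118 and 175 RPKM in Blimp1-deficient pre-plasmablasts and 13.5 and 25.6 RPKM in control pre-plasmablasts, with 193 and 294 RPKM in activated B cells and 8.25 and 20.5 RPKM in plasmablasts. The sum of 5 plasmablast and plasma cell markers (Prdm1, Sdc1, Xbp1, Irf4 and Igj) was 421 to 531 RPKM in Blimp1-deficient pre-plasmablasts and 3538 to 5464 RPKM in control pre-plasmablasts, with 85.7 to 245 RPKM in activated B cells and 6893 to 11993 RPKM in plasmablasts. Prdm1 itself made up 199 and 171 RPKM of the sum in the deficient libraries. In activated B cells it made up 7.45 and 10.7 RPKM. Between 9744 and 10077 genes reached 1 RPKM in the 8 GC-normalized libraries and between 9188 and 9519 in the 4 inhibitor libraries. Nothing states whether a group's 2 libraries derive from different mice or cultures. The p-values measure only how much such libraries vary, which may be technical. The libraries carry numbers of 2 series, with 1 library of each series in each of the 4 GC-normalized groups. Where a model with the series as a block changes the call of a member, its adjusted p is given as well.

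Promoters of the members were read from RefSeq (build GRCm38.p6), as windows of 250 bases before to 50 bases after the gene start. Of the 42 members, 34 had at least 1 window. The core of the interferon-stimulated response element, GAAA, then 2 bases of any kind, then GAAA, on either strand, was present in 15 of these 34 genes (44.118%), against 1079 of all 27025 genes of the table (3.993%). A longer form, GAAAG, 1 base of any kind, GAAAG, has a G after each GAAA and always contains the shorter motif. It was in none of the 34 members and in 144 of the 27025 genes (0.533%). The recognition sequence of Blimp1 itself was not searched for. A match is a description of letters and not a binding site. The stretches below lie upstream of the start of members whose levels go different ways in the results. Gbp2, Gbp3, Ifit3 and Oas3 were lower in pre-plasmablasts than in activated B cells, Bst2 and Rsad2 were higher, and Isg15 and Ifit1 were not called. Capitals mark each match, which reads GAAA first on the strand of the gene or TTTC first on the opposite strand.
Gbp2 (chr3:142620579-142620638, plus strand): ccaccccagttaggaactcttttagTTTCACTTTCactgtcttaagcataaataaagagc
Gbp3 (chr3:142559980-142560039, plus strand): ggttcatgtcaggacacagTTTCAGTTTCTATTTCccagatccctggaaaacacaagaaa
Ifit3 (chr19:34583382-34583441, plus strand): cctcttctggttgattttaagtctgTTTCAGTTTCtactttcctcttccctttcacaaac
Oas3 (chr5:120777700-120777759, minus strand): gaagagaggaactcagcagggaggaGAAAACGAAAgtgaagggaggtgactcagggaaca
Bst2 (chr8:71537562-71537621, minus strand): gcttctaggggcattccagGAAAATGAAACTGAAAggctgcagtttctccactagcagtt
Rsad2 (chr12:26456538-26456597, minus strand): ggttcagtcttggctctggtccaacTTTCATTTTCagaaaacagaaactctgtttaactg
Isg15 (chr4:156200850-156200909, minus strand): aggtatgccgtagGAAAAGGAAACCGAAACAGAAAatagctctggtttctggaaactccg
Ifit1 (chr19:34640779-34640838, plus strand): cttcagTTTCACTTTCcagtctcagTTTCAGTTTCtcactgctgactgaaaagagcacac

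The match in Gbp2 begins 59 bases before the gene start and that in Oas3 75 bases before it. Matches overlap each other in Gbp3, Bst2 and Isg15, and 2 separate ones lie in the printed stretch of Ifit1. Members with the motif moved either way. In pre-plasmablasts against activated B cells, 8 of the 15 members with a match were called lower and 2 higher, and of the 17 tested members with a window and no match 7 were lower and 2 higher, against 28% lower and 20.2% higher among all genes tested. In Blimp1-deficient against control pre-plasmablasts, 8 of the 15 with a match were higher and 1 lower, and of the 17 without a match 6 were higher and 4 lower, against 24.4% higher and 16.1% lower among all genes tested.

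**Figure D1:**
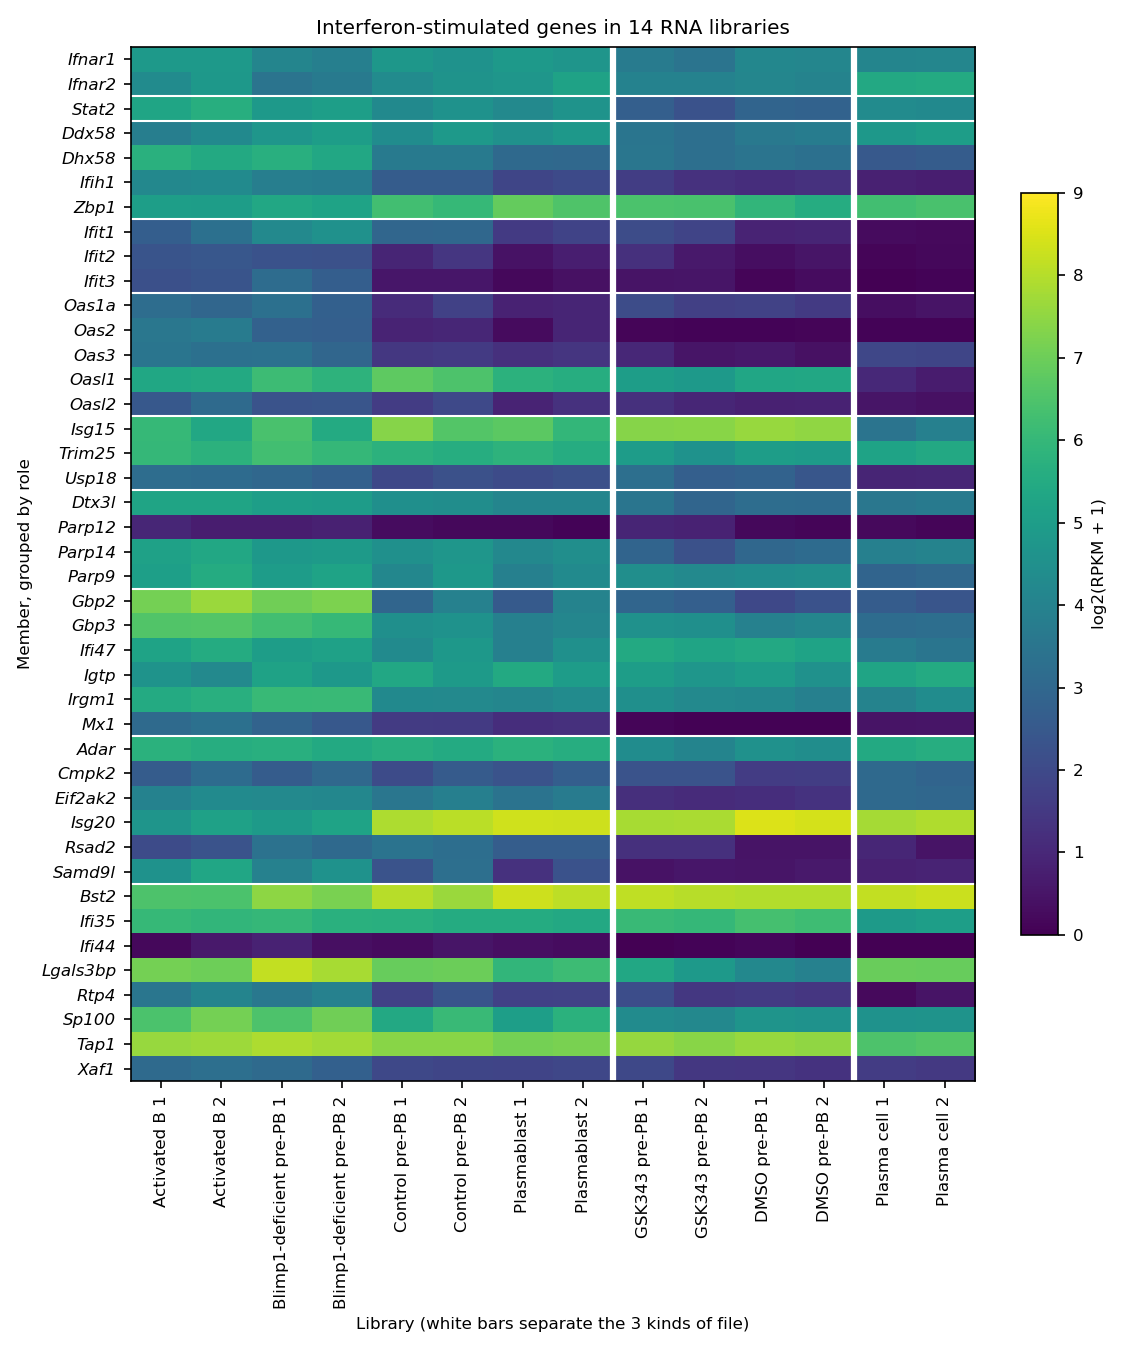
Level of each of the 42 members (rows, grouped by role) in each of the 14 RNA libraries (columns), as log2(RPKM + 1) in colour. Gbp2, Ifit3 and Oas2 are higher in Blimp1-deficient pre-plasmablasts and activated B cells than in control pre-plasmablasts and plasmablasts, whereas Isg20 and Bst2 are brightest in the Blimp1-competent GFP+ groups; levels across the white bars come from separately made tables.

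The first question was what happens to these genes as B cells start to express Blimp1. More members fell than rose in pre-plasmablasts relative to activated B cells. The GTPase genes Gbp2 and Gbp3, the oligoadenylate synthetase genes Oas1a, Oas2 and Oas3 and the RNA sensor genes Ifih1 and Dhx58 were 3.12-fold to 15.1-fold lower (on the log2(RPKM + 1) scale), while a smaller group, led by the exonuclease Isg20, rose. Of the 40 members tested, 22 were lower and 5 higher in pre-plasmablasts, against 28% lower and 20.2% higher among all 10473 genes tested (limma, adjusted p below 0.05). The other 2 members, Ifi44 and Parp12, stayed below 1 RPKM in all 8 libraries and were not tested. The median log2 fold change of the tested members was -0.82, against -0.12 for all genes tested. After median-of-ratios scaling these medians were -0.70 and -0.02, with 20 members lower and 8 higher, and the split of all genes turned to 2298 lower and 2428 higher, against 2931 and 2117 without scaling. With the series block 27 members were lower and 8 higher, against 41.7% lower and 27.9% higher among all genes in that fit. In bulk samples, fewer cells of a type and less RNA per cell cannot be told apart.

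Neither receptor subunit was called between pre-plasmablasts and activated B cells. Ifnar1 was at 27.2 and 27.6 RPKM in activated B cells, 26.1 and 22.9 RPKM in pre-plasmablasts and 27.4 and 24.7 RPKM in plasmablasts. Ifnar2 was at 19.3 and 26.7 RPKM in activated B cells, 19.2 and 23.8 RPKM in pre-plasmablasts and 25.4 and 35.1 RPKM in plasmablasts. Ifnar1 varied little, and the plasmablast libraries of Ifnar2 lay above those of pre-plasmablasts (log2 fold change -0.16 ± 0.12, adjusted p = 0.308, and log2 fold change -0.08 ± 0.22, adjusted p = 0.783, for pre-plasmablasts against activated B cells). For Ifnar2 the direction turned under scaling (0.03 on the log2 scale), and with the block it was higher in plasmablasts than in pre-plasmablasts (adjusted p = 0.00675) and than in activated B cells (adjusted p = 0.00235). Stat2, part of the activated complex, was at 38.3 and 48.4 RPKM in activated B cells, 18.3 and 22.8 RPKM in pre-plasmablasts and 17.6 and 23.6 RPKM in plasmablasts. Both activated B cell libraries lie above all others, and Stat2 was lower in pre-plasmablasts (log2 fold change -1.04 ± 0.19, adjusted p = 0.00465).

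Among the sensors, Ifih1, which recognises long viral RNA, and Dhx58, which modulates it, went down. Ifih1 was at 17.5 and 19.0 RPKM in activated B cells, 5.14 and 5.18 RPKM in pre-plasmablasts and 2.68 and 3.05 RPKM in plasmablasts. Dhx58 was at 50.8 and 42.9 RPKM in activated B cells, 11.8 and 12.2 RPKM in pre-plasmablasts and 7.37 and 7.30 RPKM in plasmablasts. For both genes the 3 stages form a falling series without overlap, and the differences of pre-plasmablasts from activated B cells were called (log2 fold change -1.64 ± 0.10, adjusted p = 5.27e-05, and log2 fold change -1.88 ± 0.13, adjusted p = 7.31e-05). Ddx58, the sensor RIG-I, was at 13.5 and 18.4 RPKM in activated B cells, 20.0 and 27.3 RPKM in pre-plasmablasts and 22.6 and 27.2 RPKM in plasmablasts. Its level in pre-plasmablasts lay above that in activated B cells, without overlap, but the difference was called only with the block (log2 fold change 0.54 ± 0.21, adjusted p = 0.0747, with the block adjusted p = 0.000209). Zbp1, a sensor of left-handed nucleic acid that can start cell death, was at 31.9 and 31.6 RPKM in activated B cells, 76.7 and 63.8 RPKM in pre-plasmablasts and 115 and 89.8 RPKM in plasmablasts. It was higher in pre-plasmablasts (log2 fold change 1.11 ± 0.15, adjusted p = 0.00114).

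The Ifit proteins bind viral RNA and restrain its translation. Ifit3 was at 3.62 and 4.01 RPKM in activated B cells, 0.470 and 0.471 RPKM in pre-plasmablasts and 0.137 and 0.322 RPKM in plasmablasts. Ifit2 was at 4.04 and 4.40 RPKM in activated B cells, 0.920 and 1.67 RPKM in pre-plasmablasts and 0.356 and 0.682 RPKM in plasmablasts. Activated B cells were well above the others for both, and both were lower in pre-plasmablasts (log2 fold change -1.71 ± 0.18, adjusted p = 0.000383, and log2 fold change -1.21 ± 0.18, adjusted p = 0.00203). Ifit1 was at 5.52 and 8.90 RPKM in activated B cells, 6.85 and 7.10 RPKM in pre-plasmablasts and 1.85 and 2.51 RPKM in plasmablasts. It differed from these neighbours in that its pre-plasmablast libraries lay between those of activated B cells (log2 fold change -0.01 ± 0.22, adjusted p = 0.972).

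The Oas enzymes make oligoadenylates that activate RNase L. Oas2 was at 10.8 and 12.3 RPKM in activated B cells, 0.861 and 0.942 RPKM in pre-plasmablasts and 0.212 and 0.922 RPKM in plasmablasts. Oas3 was at 10.4 and 9.10 RPKM in activated B cells, 1.74 and 1.87 RPKM in pre-plasmablasts and 1.397 and 1.60 RPKM in plasmablasts. Oas1a was at 8.29 and 6.87 RPKM in activated B cells, 1.17 and 2.32 RPKM in pre-plasmablasts and 0.806 and 0.928 RPKM in plasmablasts. All 3 were several-fold lower in pre-plasmablasts, with no overlap between the libraries of the 2 stages (log2 fold change -2.72 ± 0.21, adjusted p = 0.000117, log2 fold change -1.94 ± 0.15, adjusted p = 0.000108, and log2 fold change -1.67 ± 0.26, adjusted p = 0.00209). Oasl2 was also lower (log2 fold change -1.01 ± 0.25, adjusted p = 0.0155). Oasl1, which in mice represses translation of Irf7 messenger RNA, went the other way at 40.2 and 43.3 RPKM in activated B cells, 108 and 87.9 RPKM in pre-plasmablasts and 53.8 and 47.7 RPKM in plasmablasts. It was higher in pre-plasmablasts (log2 fold change 1.21 ± 0.15, adjusted p = 0.000929). Oas1a, the Ifit genes and the guanylate-binding protein genes have close paralogs, so reads could have been divided between copies.

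In the Isg15 system, Isg15 itself was at 64.8 and 41.5 RPKM in activated B cells, 164 and 95.3 RPKM in pre-plasmablasts and 106 and 60.6 RPKM in plasmablasts. In each stage the first library was the higher, and pre-plasmablasts lay above activated B cells without overlap. The difference missed the threshold and was called with the block (log2 fold change 1.25 ± 0.44, adjusted p = 0.0545, with the block adjusted p = 1.68e-06). It was also called after median-of-ratios scaling (adjusted p = 0.0442) and with only the 2 groups compared in the fit (adjusted p = 0.0435). Usp18, which removes Isg15 and restrains the receptor, was at 8.20 and 7.90 RPKM in activated B cells, 2.90 and 3.67 RPKM in pre-plasmablasts and 3.18 and 3.58 RPKM in plasmablasts. It was lower in pre-plasmablasts (log2 fold change -1.08 ± 0.14, adjusted p = 0.001). Trim25, a ligase that activates RIG-I, was between 46.4 and 77.0 RPKM in the 8 libraries and passed only with the block (lower, adjusted p = 0.00878). The entry Herc5 was at 8.48 and 7.36 RPKM in activated B cells, 8.38 and 4.50 RPKM in pre-plasmablasts and 2.81 and 2.78 RPKM in plasmablasts.

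Of the interferon-induced GTPases, several of which attack pathogen membranes and vacuoles, 5 of 6 were lower in pre-plasmablasts and none was higher. Gbp2 was at 136 and 200.1 RPKM in activated B cells, 6.73 and 14.6 RPKM in pre-plasmablasts and 4.86 and 15.3 RPKM in plasmablasts. Gbp3 was at 93.6 and 96.6 RPKM in activated B cells, 21.3 and 22.9 RPKM in pre-plasmablasts and 14.2 and 16.3 RPKM in plasmablasts. Irgm1 was at 44.6 and 49.9 RPKM in activated B cells, 18.4 and 17.8 RPKM in pre-plasmablasts and 16.7 and 19.2 RPKM in plasmablasts. For these 3 genes activated B cells stood far above both later stages, and Gbp2 had the largest fall of any member (log2 fold change -3.92 ± 0.53, adjusted p = 0.00118). Gbp3 and Irgm1 were lower with smaller errors (log2 fold change -2.06 ± 0.12, adjusted p = 4.02e-05, and log2 fold change -1.34 ± 0.10, adjusted p = 0.000114). Mx1, which carries a deletion in C57BL/6 mice, was at 7.69 and 9.09 RPKM in activated B cells, 1.93 and 1.88 RPKM in pre-plasmablasts and 1.26 and 1.37 RPKM in plasmablasts. It was lower too (log2 fold change -1.69 ± 0.15, adjusted p = 0.000219), as was Ifi47 (log2 fold change -0.83 ± 0.24, adjusted p = 0.0304). Igtp was between 17.9 and 43.1 RPKM in the 8 libraries, and its higher level in pre-plasmablasts was called only with the block (log2 fold change 0.74 ± 0.26, adjusted p = 0.0514, with the block adjusted p = 1.55e-05).

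Among enzymes that act on RNA, nucleotides and translation, Isg20, an exonuclease, was at 25.2 and 34.8 RPKM in activated B cells, 237 and 265 RPKM in pre-plasmablasts and 324 and 315 RPKM in plasmablasts. The pre-plasmablast libraries lay several-fold above those of activated B cells, and this was the largest rise of any member (log2 fold change 3.04 ± 0.17, adjusted p = 4.18e-05). Rsad2, the antiviral enzyme viperin, was at 3.16 and 3.89 RPKM in activated B cells, 9.86 and 8.55 RPKM in pre-plasmablasts and 5.36 and 5.24 RPKM in plasmablasts. It was highest in pre-plasmablasts (log2 fold change 1.17 ± 0.15, adjusted p = 0.00095). Samd9l, which restrains cell growth and viral translation, was at 23.3 and 39.5 RPKM in activated B cells, 3.99 and 8.74 RPKM in pre-plasmablasts and 1.42 and 3.79 RPKM in plasmablasts. It fell (log2 fold change -2.17 ± 0.47, adjusted p = 0.00936), a call that was lost without the second activated B cell library (adjusted p = 0.0533). Eif2ak2, the kinase PKR that halts translation, ranged from 9.83 to 18.7 RPKM, Cmpk2, a mitochondrial nucleotide kinase, from 3.13 to 7.81 RPKM, and the RNA editor Adar from 43.3 to 52.5 RPKM over the 8 libraries. Eif2ak2 and Cmpk2 were lower in pre-plasmablasts only with the block (adjusted p = 0.00742 and adjusted p = 0.000488). Adar was not called in any comparison.

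Bst2, the membrane protein tetherin that holds viruses on the cell surface, was at 88.3 and 86.4 RPKM in activated B cells, 259 and 197 RPKM in pre-plasmablasts and 316 and 274 RPKM in plasmablasts. It was higher in pre-plasmablasts (log2 fold change 1.36 ± 0.16, adjusted p = 0.000734). Rtp4 was at 10.7 and 15.7 RPKM in activated B cells, 2.34 and 4.06 RPKM in pre-plasmablasts and 2.34 and 2.38 RPKM in plasmablasts, and it was lower (log2 fold change -1.77 ± 0.26, adjusted p = 0.00164). Of the others, Xaf1 ranged from 2.60 to 8.69 RPKM, the nuclear body protein gene Sp100 from 31.7 to 138.6 RPKM, the peptide transporter gene Tap1 from 137.5 to 237.8 RPKM, Ifi35 from 42.6 to 64.7 RPKM and Lgals3bp from 60.4 to 284 RPKM. The ADP-ribosyl transferase genes Parp9 and Parp14 ranged from 14.1 to 45.3 and from 17.2 to 41.4 RPKM, and Dtx3l, the ligase that pairs with Parp9, from 16.1 to 37.6 RPKM. Each of these 3, with Xaf1 and Ifi35, was lower in pre-plasmablasts, with log2 fold changes between -1.28 for Xaf1 and -0.36 for Ifi35. Sp100 and Tap1 were lower only with the block (log2 fold change -1.02 ± 0.37, adjusted p = 0.06, with the block adjusted p = 1.41e-06, and log2 fold change -0.24 ± 0.09, adjusted p = 0.0599, with the block adjusted p = 0.00943). Parp12 ranged from 0.0723 to 0.955 RPKM and Ifi44 from 0.130 to 0.837 RPKM.

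**Figure D2:**
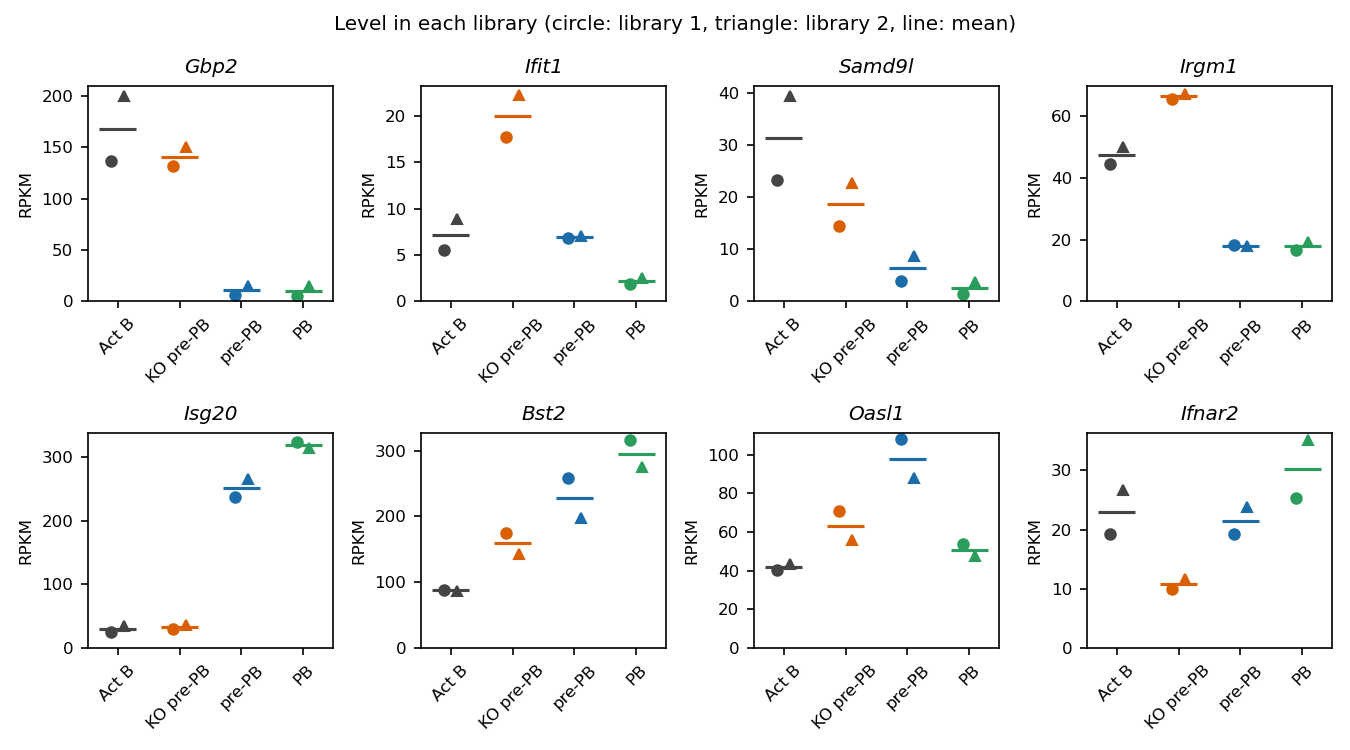
RPKM of 8 members in each GC-normalized library (circle, first library; triangle, second; line, mean of 2) for activated B cells (Act B), Blimp1-deficient pre-plasmablasts (KO pre-PB), control pre-plasmablasts (pre-PB) and plasmablasts (PB). Gbp2 is at 132 to 200.1 RPKM in Blimp1-deficient pre-plasmablasts and activated B cells and at 4.86 to 15.3 RPKM in control pre-plasmablasts and plasmablasts, and Isg20 shows the opposite order.

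From pre-plasmablasts to plasmablasts the further change was small. Of the 40 members tested, 4 were lower and none higher in plasmablasts, against 1.62% lower and 0.716% higher among all genes tested. At an unadjusted limma p below 0.05, 11 were lower and 1 higher, and with the block 16 were lower and 3 higher, against 13.3% lower and 7% higher among all genes in that fit. The 4 called members were Ifit1 (log2 fold change -1.33 ± 0.22, adjusted p = 0.0378), Oasl1 (log2 fold change -0.93 ± 0.15, adjusted p = 0.0361), Lgals3bp (log2 fold change -0.89 ± 0.14, adjusted p = 0.0303) and Ifih1 (log2 fold change -0.68 ± 0.10, adjusted p = 0.0261). Lgals3bp, which encodes a secreted galectin-binding protein, was at 60.4 and 70.5 RPKM in plasmablasts and 118.8 and 125 RPKM in pre-plasmablasts. With any plasmablast or pre-plasmablast library left out, no member was called lower (0 of 40), and 1 was without either activated B cell library and 2 without either Blimp1-deficient library. With the block Bst2, Zbp1 and Ifnar2 were higher in plasmablasts (adjusted p = 0.0159, adjusted p = 0.00445 and adjusted p = 0.00675). Neither Ifnar1 nor Stat2 nor Usp18 was called (log2 fold change 0.09 ± 0.12, adjusted p = 0.837, log2 fold change -0.01 ± 0.19, adjusted p = 0.996, and log2 fold change 0.04 ± 0.14, adjusted p = 0.966), and Isg15 was lower only with the block (log2 fold change -0.63 ± 0.44, adjusted p = 0.584, with the block adjusted p = 0.00112). Besides Isg15, Ifit2, Dhx58, Oasl2, Rsad2, Gbp3, Parp9, Parp14, Dtx3l, Sp100, Tap1 and Samd9l were lower only with the block (adjusted p between 0.000796 for Samd9l and 0.0258 for Tap1). The median log2 fold change was -0.28 for the members and -0.04 for all genes tested. Scaling turned the calls among all genes to 102 higher and 139 lower, against 75 and 170 without it.

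Plasmablasts against activated B cells gave 27 members lower and 6 higher of 40, against 33.9% and 21.3% of all genes tested. With the block 29 were lower and 9 higher, against 47.4% lower and 28% higher among all genes in that fit. This comparison uses the same libraries as both steps. The members lowest in plasmablasts were Gbp2 (log2 fold change -4.09 ± 0.53, adjusted p = 0.00077), Samd9l (log2 fold change -3.20 ± 0.47, adjusted p = 0.00142), Oas2 (log2 fold change -3.04 ± 0.21, adjusted p = 5.48e-05) and Gbp3 (log2 fold change -2.56 ± 0.12, adjusted p = 1.32e-05). Dhx58, Ifih1, Oas1a, Oas3, Rtp4, Mx1, Ifit3 and Ifit2 followed, with log2 fold changes between -2.52 for Dhx58 and -1.79 for Ifit2. The 6 higher members were Isg20 (log2 fold change 3.39 ± 0.17, adjusted p = 1.94e-05), Bst2 (log2 fold change 1.74 ± 0.16, adjusted p = 0.00019), Zbp1 (log2 fold change 1.65 ± 0.15, adjusted p = 0.000161), Igtp, Ddx58 and Rsad2, the last 3 with log2 fold changes of 0.79, 0.62 and 0.48. Without the first plasmablast library 3 members were called higher, and Igtp, Ddx58 and Rsad2 lost their calls (adjusted p = 0.18, 0.0671 and 0.112). Igtp also lost its call without the second activated B cell library (adjusted p = 0.167), Rsad2 without the first (adjusted p = 0.162) or the second plasmablast library (adjusted p = 0.0942), and Ddx58 without the first activated B cell library (adjusted p = 0.205), the second plasmablast library (adjusted p = 0.178) or either Blimp1-deficient library (adjusted p = 0.0556 and 0.0555). Scaling moved the median of all genes from -0.18 to -0.01 and that of the members from -1.10 to -0.93, and it changed the split of all genes to 2765 higher and 2629 lower, against 2228 and 3547. Stat2 and Usp18 were lower (log2 fold change -1.04 ± 0.19, adjusted p = 0.00372, and log2 fold change -1.05 ± 0.14, adjusted p = 0.000917). Isg15, Ifnar1 and Ifnar2 were not called (log2 fold change 0.62 ± 0.44, adjusted p = 0.273, log2 fold change -0.07 ± 0.12, adjusted p = 0.635, and log2 fold change 0.38 ± 0.22, adjusted p = 0.178), and with the block Isg15 and Ifnar2 were higher (adjusted p = 7.52e-05 and adjusted p = 0.00235), as was Oasl1 (adjusted p = 0.0348), while Trim25 and Cmpk2 were lower (adjusted p = 0.00885 and adjusted p = 0.00337). The direction for Ifnar1 turned under scaling (0.12 on the log2 scale).

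The second question was how these genes behave when Blimp1 is deleted. In Blimp1-deficient pre-plasmablasts 19 of the 40 tested members were higher and 6 lower than in control pre-plasmablasts, against 24.4% higher and 16.1% lower among all genes tested. Of the 19, 16 were at least 2-fold higher on the log2(RPKM + 1) scale. With the block 30 were higher and 8 lower, against 40.4% higher and 24.9% lower among all genes in that fit. The median log2 fold change of the members was 0.56, against 0.12 for all genes, and after scaling 0.44 and 0.00. Scaling left 18 members higher and 6 lower, while the split of all genes changed to 1858 higher and 2045 lower, against 2553 and 1681. The deficient cells were also gated on high CD22, so genotype and gate cannot be told apart. This comparison uses the same control pre-plasmablast libraries as those above.

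Several markers of other cells differed between these groups. Of 7 myeloid markers, 3 (Itgam, Tyrobp and Fcer1g) are in the GC-normalized tables, and their summed level was 35.9 to 43.1 RPKM in Blimp1-deficient pre-plasmablasts, against 12.3 to 17.2 RPKM in control pre-plasmablasts. It was 24.8 to 31.3 RPKM in activated B cells and 4.48 to 6.69 RPKM in plasmablasts. Of 6 dendritic and natural killer cell markers, 4 are in these tables, with a sum of 31.0 to 37.7 RPKM in deficient pre-plasmablasts and 21.6 to 25.6 RPKM in control ones, and of 51.4 to 59.3 RPKM in activated B cells and 9.34 to 9.52 RPKM in plasmablasts. Of these, Flt3 was at 23.2 and 22.3 RPKM in deficient and 17.6 and 15.8 RPKM in control pre-plasmablasts and Batf3 at 13.3 and 7.78 RPKM in deficient and 7.30 and 5.10 RPKM in control ones, while the defining dendritic cell marker Itgax stayed at or under 0.440 RPKM in all 8 libraries. Of 3 erythroid markers 2 are in the tables, and their sum was 13.3 to 14.5 RPKM in deficient pre-plasmablasts and 2.50 to 3.27 RPKM in control ones, with 12.9 to 18.4 RPKM in activated B cells and 1.49 to 1.60 RPKM in plasmablasts. Of 4 plasmacytoid dendritic cell markers 3 are in the tables, and their sum, nearly all from Ly6d, was 696 to 752 RPKM in deficient pre-plasmablasts and 1307 to 1687 RPKM in control ones, with 676 to 729 RPKM in activated B cells and 851 to 1054 RPKM in plasmablasts. Tcf4 went the other way, at 125 and 98.8 RPKM in deficient and 67.8 and 48.6 RPKM in control pre-plasmablasts. Ccr9 was under 1 RPKM in all 8 libraries. Of 6 T cell markers only Lck is in the tables, at 4.82 and 4.45 RPKM in deficient cells and 1.74 and 2.75 RPKM in control cells, with 6.91 and 7.63 RPKM in activated B cells and 2.07 and 2.79 RPKM in plasmablasts. The part of such cells in the differences of the members was not tested.

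Gbp2 had the largest difference, at 132 and 149.9 RPKM in Blimp1-deficient pre-plasmablasts, against 6.73 and 14.6 RPKM in control pre-plasmablasts (log2 fold change 3.69 ± 0.53, adjusted p = 0.0021). Gbp3 was at 76.7 and 64.4 RPKM in deficient cells, against 21.3 and 22.9 RPKM in control cells (log2 fold change 1.63 ± 0.12, adjusted p = 0.000146). Irgm1 was at 65.7 and 67.2 RPKM in deficient cells, against 18.4 and 17.8 RPKM in control cells (log2 fold change 1.82 ± 0.10, adjusted p = 6.94e-05). The deficient libraries lay far above the control libraries for these 3 GTPase genes. Mx1 was the fourth GTPase called higher (log2 fold change 1.12 ± 0.15, adjusted p = 0.00177), and Ifi47 passed only with the block (adjusted p = 0.00246).

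All 3 Ifit genes were higher. Ifit3 was at 8.13 and 5.49 RPKM in deficient cells, against 0.470 and 0.471 RPKM in control cells (log2 fold change 2.39 ± 0.18, adjusted p = 0.000157). Ifit1 was at 17.8 and 22.2 RPKM in deficient cells, against 6.85 and 7.10 RPKM in control cells (log2 fold change 1.39 ± 0.22, adjusted p = 0.00337). Ifit2 was at 3.82 and 3.66 RPKM in deficient cells, against 0.920 and 1.67 RPKM in control cells (log2 fold change 1.07 ± 0.18, adjusted p = 0.00446). No library of the deficient cells came down to a control library in any of them.

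Of the oligoadenylate synthetase family, Oas2, Oas3 and Oas1a were higher and Oasl1 was lower. Oas2 was at 5.89 and 5.60 RPKM in deficient cells, against 0.861 and 0.942 RPKM in control cells (log2 fold change 1.83 ± 0.21, adjusted p = 0.000898). Oas3 was at 9.19 and 6.93 RPKM in deficient cells, against 1.74 and 1.87 RPKM in control cells (log2 fold change 1.68 ± 0.15, adjusted p = 3e-04). Both separate the genotypes without overlap, as does Oas1a (log2 fold change 1.62 ± 0.26, adjusted p = 0.00315), at 9.02 and 5.80 RPKM in deficient cells and 1.17 and 2.32 RPKM in control cells. Oasl1 was at 70.7 and 55.9 RPKM in deficient cells, against 108 and 87.9 RPKM in control cells (log2 fold change -0.63 ± 0.15, adjusted p = 0.018). It lost its call without the second deficient library (adjusted p = 0.0901) or the first control library (adjusted p = 0.0923).

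The sensors divided in the same way. Dhx58 was at 49.6 and 40.7 RPKM in deficient cells, against 11.8 and 12.2 RPKM in control cells (log2 fold change 1.82 ± 0.13, adjusted p = 0.000137). Ifih1 was at 13.3 and 12.8 RPKM in deficient cells, against 5.14 and 5.18 RPKM in control cells (log2 fold change 1.19 ± 0.10, adjusted p = 0.000263). Both were higher in deficient cells without overlap. Zbp1 was at 40.8 and 36.1 RPKM in deficient cells, against 76.7 and 63.8 RPKM in control cells, and was lower (log2 fold change -0.85 ± 0.15, adjusted p = 0.00483). Ddx58 was called higher only with the block (adjusted p = 0.00996).

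Rtp4 was at 11.2 and 14.5 RPKM in deficient cells, against 2.34 and 4.06 RPKM in control cells (log2 fold change 1.74 ± 0.26, adjusted p = 0.00233). Samd9l was at 14.5 and 22.8 RPKM in deficient cells, against 3.99 and 8.74 RPKM in control cells (log2 fold change 1.46 ± 0.47, adjusted p = 0.0474). Rtp4 and Samd9l did not overlap between the genotypes. The call for Samd9l was lost after scaling (adjusted p = 0.063) and without the first control library (adjusted p = 0.21), either deficient library (adjusted p = 0.0796 and 0.202) or either activated B cell library (adjusted p = 0.0539 for each), and with the block it had adjusted p = 1e-05. Lgals3bp, Xaf1, Usp18, Dtx3l and Tap1 were also higher, with log2 fold changes between 1.04 for Lgals3bp and 0.42 for Tap1. Oasl2, Ifi35, Parp9, Parp14, Trim25, Cmpk2, Eif2ak2 and Sp100 were higher only with the block (adjusted p between 2.71e-06 for Sp100 and 0.0154 for Parp14), and Igtp was lower only with the block (adjusted p = 0.0337). Usp18 was at 7.00 and 5.70 RPKM in deficient cells, against 2.90 and 3.67 RPKM in control cells (log2 fold change 0.78 ± 0.14, adjusted p = 0.00547).

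Of the 6 lower members, Isg20 was at 29.1 and 36.5 RPKM in deficient cells, against 237 and 265 RPKM in control cells (log2 fold change -2.91 ± 0.17, adjusted p = 8.01e-05). Bst2 was at 175 and 143 RPKM in deficient cells, against 259 and 197 RPKM in control cells (log2 fold change -0.51 ± 0.16, adjusted p = 0.0466). Isg20 showed a wide gap between the genotypes and Bst2 a narrow one, and the call for Bst2 was lost without any library but the second control one (adjusted p = 0.0562 to 0.212). Both receptor subunits were lower. Ifnar1 was at 16.0 and 13.7 RPKM in deficient cells, against 26.1 and 22.9 RPKM in control cells (log2 fold change -0.69 ± 0.12, adjusted p = 0.00438). Ifnar2 was at 9.91 and 11.7 RPKM in deficient cells, against 19.2 and 23.8 RPKM in control cells (log2 fold change -0.93 ± 0.22, adjusted p = 0.015). The libraries of the genotypes did not overlap for either subunit, and the call for Ifnar2 was lost without the first deficient library (adjusted p = 0.0824) or the second control library (adjusted p = 0.0763).

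Stat2 was at 27.8 and 32.4 RPKM in deficient cells, against 18.3 and 22.8 RPKM in control cells, and passed only with the block (log2 fold change 0.53 ± 0.19, adjusted p = 0.0668, with the block adjusted p = 0.000188). Isg15 was at 85.2 and 44.8 RPKM in deficient cells, against 164 and 95.3 RPKM in control cells, and was lower only with the block (log2 fold change -1.01 ± 0.44, adjusted p = 0.116, with the block adjusted p = 8.52e-06). The entry Herc5 was at 14.7 and 10.2 RPKM in deficient cells, against 8.38 and 4.50 RPKM in control cells. Rsad2 was at 9.62 and 7.52 RPKM in deficient cells, against 9.86 and 8.55 RPKM in control cells. The genotypes overlap in Rsad2 (log2 fold change -0.10 ± 0.15, adjusted p = 0.646).

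**Figure D3:**
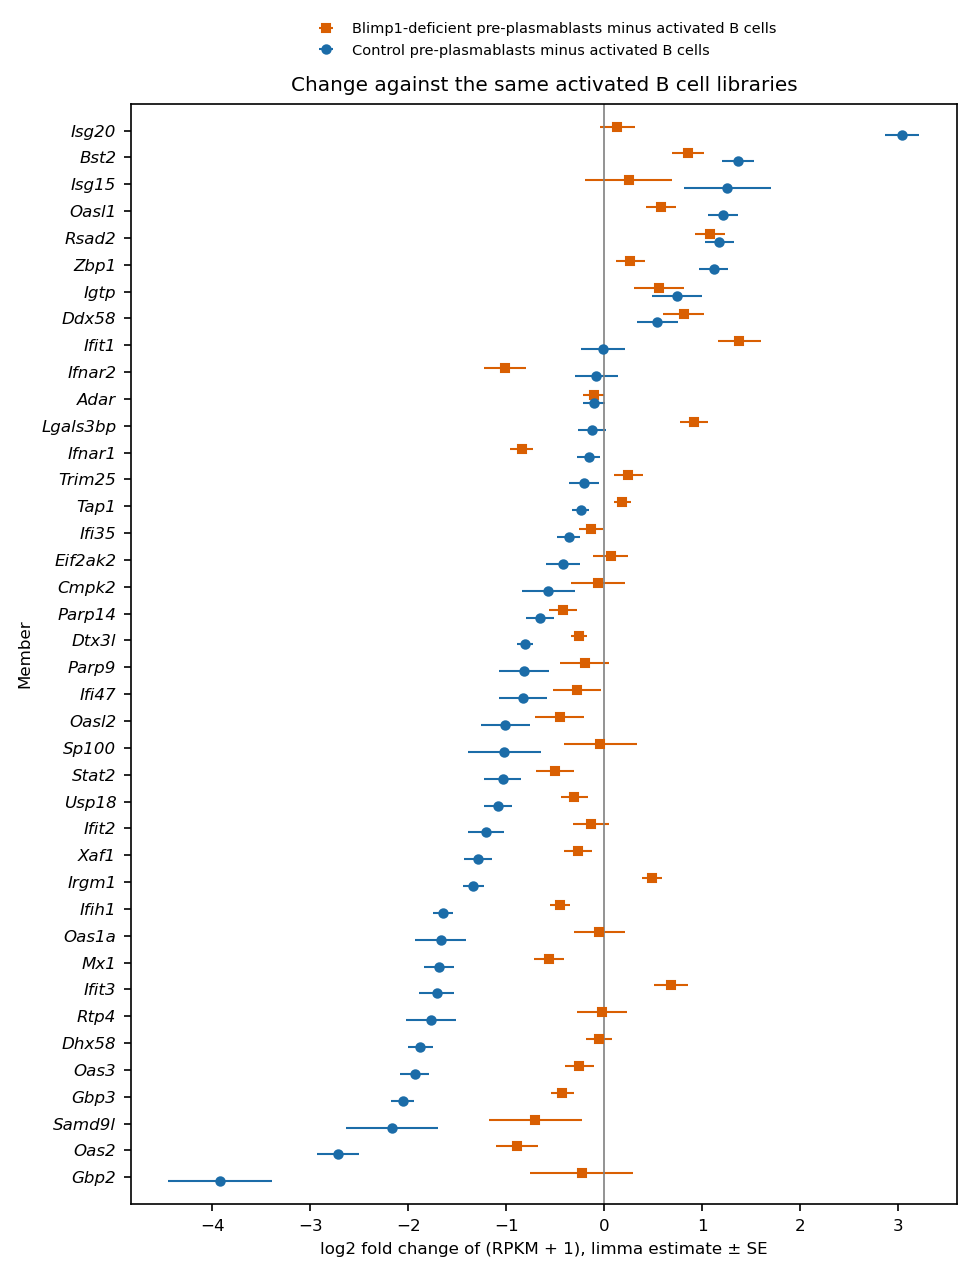
Log2 fold change of each of the 40 tested members (limma estimate with its SE, horizontal axis) against activated B cells, in Blimp1-deficient pre-plasmablasts (orange squares) and control pre-plasmablasts (blue circles). Both sets of points share the activated B cell libraries; for Gbp2 the deficient point is at -0.23 and the control point at -3.92, and for Isg20 they are at 0.13 and 3.04.

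In Blimp1-deficient pre-plasmablasts Rsad2, Lgals3bp and Ifit1 were higher than in activated B cells, and the receptor subunit gene Ifnar1 was lower. Of the 40 members tested, 8 were higher and 6 lower, against 10.4% higher and 7.6% lower among all genes tested. With the block 13 were higher and 11 lower, against 22.1% higher and 20.6% lower among all genes in that fit, and with any deficient or activated B cell library left out 3 to 4 were higher and 1 to 2 lower. Without either plasmablast library 5 were higher, and without either control pre-plasmablast library 3 were lower. Rsad2, Lgals3bp and Ifnar1 kept their calls with each of the 8 libraries left out in turn, and Ifit1 lost its call only without the second deficient library (adjusted p = 0.0585). The other calls were lost more often, Bst2 and Ifnar2 in 3 of the 8 settings (adjusted p = 0.0792 to 0.0847 and 0.074 to 0.113), Ifit3 in 7 (adjusted p = 0.0625 to 0.196), Gbp3 in all 8, and Ddx58, Oasl1, Irgm1, Oas2, Mx1 and Ifih1 in 4 to 7. The median log2 fold change was -0.09 for the members and 0.00 for all genes. Ifit1 was at 17.8 and 22.2 RPKM in deficient pre-plasmablasts, against 5.52 and 8.90 RPKM in activated B cells (log2 fold change 1.38 ± 0.22, adjusted p = 0.00824). Rsad2 was at 9.62 and 7.52 RPKM in deficient pre-plasmablasts, against 3.16 and 3.89 RPKM in activated B cells (log2 fold change 1.08 ± 0.15, adjusted p = 0.0048). Lgals3bp was at 284 and 223 RPKM in deficient pre-plasmablasts, against 138 and 129 RPKM in activated B cells (log2 fold change 0.92 ± 0.14, adjusted p = 0.00667). In these 3 genes both deficient libraries lay above both activated B cell libraries. Bst2, Ddx58, Ifit3, Oasl1 and Irgm1 were higher as well, with log2 fold changes between 0.85 for Bst2 and 0.48 for Irgm1.

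The 6 members lower than in activated B cells were Ifnar2 (log2 fold change -1.01 ± 0.22, adjusted p = 0.022), Oas2 (log2 fold change -0.89 ± 0.21, adjusted p = 0.0319), Ifnar1 (log2 fold change -0.84 ± 0.12, adjusted p = 0.00472), Mx1, Ifih1 and Gbp3, the last 3 between -0.57 for Mx1 and -0.43 for Gbp3 on the log2 scale. Ifnar1 stood at 16.0 and 13.7 RPKM in deficient pre-plasmablasts, against 27.2 and 27.6 RPKM in activated B cells. Ifnar2 stood at 9.91 and 11.7 RPKM in deficient pre-plasmablasts, against 19.3 and 26.7 RPKM in activated B cells. The deficient libraries were the lowest of the 8 for both subunits. Gbp2 was at 132 and 149.9 RPKM in deficient pre-plasmablasts, against 136 and 200.1 RPKM in activated B cells, and was not called (log2 fold change -0.23 ± 0.53, adjusted p = 0.839). Isg20 and Usp18 were not called either (log2 fold change 0.13 ± 0.17, adjusted p = 0.692, and log2 fold change -0.30 ± 0.14, adjusted p = 0.197). Stat2 and Isg15 passed only with the block, Stat2 as lower (log2 fold change -0.51 ± 0.19, adjusted p = 0.126, with the block adjusted p = 0.000539) and Isg15 as higher (log2 fold change 0.25 ± 0.44, adjusted p = 0.786, with the block adjusted p = 0.0229). So did Igtp, Trim25, Tap1 and Zbp1 as higher (adjusted p between 0.00024 for Igtp and 0.0477 for Tap1) and Oasl2, Parp14, Dtx3l and Samd9l as lower (adjusted p between 0.00118 for Samd9l and 0.0276 for Oasl2).

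Other genes of the pathway were read from a list that holds no member, chosen with earlier results of these data known. Of its genes, 89 were tested in the GC-normalized tables. Between pre-plasmablasts and activated B cells 51 of these were lower and 13 higher, against 28% and 20.2% of all genes tested. Between Blimp1-deficient and control pre-plasmablasts 46 were higher and 8 lower, against 24.4% and 16.1% of all genes. With the block 15 were lower, against 24.9% of all genes in that fit. The 8 lower became 3 without the first control library, 4 without the first deficient library and 5 without the second of either. Of the transcription factors, Irf9 was at 38.3 and 37.9 RPKM in deficient pre-plasmablasts, against 24.1 and 28.9 RPKM in control pre-plasmablasts (log2 fold change 0.51 ± 0.14, adjusted p = 0.0263). Irf7, the factor that amplifies interferon production, went the other way, at 34.6 and 30.3 RPKM in deficient pre-plasmablasts, against 164 and 149 RPKM in control pre-plasmablasts (log2 fold change -2.24 ± 0.12, adjusted p = 6.61e-05). Activated B cells had 34.4 and 42.8 RPKM of Irf9 and 28.4 and 33.0 RPKM of Irf7, and neither was called between deficient cells and activated B cells (log2 fold change -0.01 ± 0.14, adjusted p = 0.975, and log2 fold change 0.08 ± 0.12, adjusted p = 0.758).

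Of the listed genes, those lowest in pre-plasmablasts against activated B cells were the DNA sensor gene Tlr9 (log2 fold change -4.53), Ifitm2 (-3.82), Ms4a4c (-3.34), Slfn5 (-2.99) and the lysosomal reductase gene Ifi30 (-2.99). Those highest were the chemokine gene Cxcl10 (2.56), Irf7 (2.31), Ly6a (1.65), B2m, the light chain of MHC class I (1.52), and Mnda (1.08). Tlr9 was at 132 and 133 RPKM in Blimp1-deficient pre-plasmablasts, against 2.65 and 5.16 RPKM in control pre-plasmablasts (log2 fold change 4.82 ± 0.31, adjusted p = 0.000102). Ifi30, Slfn5 and Ifi203 came next among the genes higher in deficient cells (2.44, 2.41 and 2.22 on the log2 scale). Ifitm1, at 1.85 and 4.12 RPKM in deficient cells, is listed at 0 in both control libraries. In activated B cells it was at 1.16 and 0.389 RPKM, so it passed the filter only with the deficient libraries counted. After Irf7, the genes lowest in deficient cells were Il10rb, Tapbp, Socs3 and Irf1, between -1.01 for Il10rb and -0.45 for Irf1.

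Plasmablasts against pre-plasmablasts had 4 of the 89 listed genes lower and none higher (limma, adjusted p below 0.05), against 1.62% and 0.716% of all genes tested. With the block 22 were lower and 6 higher, against 13.3% lower and 7% higher among all genes in that fit. With any plasmablast or pre-plasmablast library left out 0 were lower, with any other library left out 1 was, and with only the 2 groups in the fit 0 were. The 4 were Tmem173, the sensor adaptor STING (log2 fold change -0.75 ± 0.09, adjusted p = 0.0118), Gbp6, Irf8 and Epsti1. Against activated B cells 55 were lower and 14 higher in plasmablasts (33.9% and 21.3% of all genes tested), led by Tlr9 (-4.43), Ms4a4c (-4.15), Ifitm2 (-3.77), Slfn5 (-3.10) and Gbp6 (-2.94) on the lower side, and by Cxcl10 (2.39), Irf7 (2.25), B2m (1.496), Ly6a (1.31) and Mnda (1.28) on the higher side, as log2 fold changes. Blimp1-deficient pre-plasmablasts against activated B cells had 11 listed genes lower and 10 higher, against 7.6% and 10.4% of all genes tested. With the block 35 were lower and 23 higher, against 20.6% lower and 22.1% higher among all genes in that fit. With any deficient or activated B cell library left out 4 to 5 were lower and 4 to 5 higher. The lowest were Socs3, a feedback inhibitor of cytokine receptors (-2.56), Ifitm2 (-1.95), Ms4a4c (-1.56), Irf8 (-1.29) and Jak1 (-0.73). The highest were Mlkl (1.66), Mnda (1.62), Ifitm1 (1.14), Ifitm3 (0.90) and Nlrc5, an activator of MHC class I genes (0.83). No gene for an interferon itself was tested. The 10 listed ones are at 0 to 0.534 RPKM in the inhibitor libraries, and Ifnb1 is listed at 0 in 3 of these 4.

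The third question was whether inhibition of EZH2, which writes the repressive mark H3K27me3, changes these genes in pre-plasmablasts. These 4 libraries were deposited without GC normalization and carry no block. Of the 42 members 33 were tested, and the other 9 (Ifit2, Ifit3, Oasl2, Oas2, Oas3, Ifi44, Parp12, Samd9l and Mx1) did not reach 1 RPKM in 2 libraries. With GSK343, 7 members were higher and 4 lower than with DMSO, against 12.7% higher and 5.86% lower among all 9479 genes tested. The 7 include Ifit1 and Rsad2, which passed the filter only through the GSK343 libraries and so could only come out as higher. The median log2 fold change was 0.04 for the members and 0.02 for all genes. After scaling 7 were higher and 7 lower, and the split of all genes changed to 1054 higher and 855 lower, against 1208 and 555.

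Ifit1 was at 3.29 and 2.62 RPKM with GSK343, against 0.844 and 0.892 RPKM with DMSO (log2 fold change 1.08 ± 0.14, adjusted p = 0.000408). Lgals3bp was at 41.4 and 28.5 RPKM with GSK343, against 17.5 and 14.4 RPKM with DMSO (log2 fold change 1.07 ± 0.15, adjusted p = 0.000795). Rsad2 was at 1.35 and 1.39 RPKM with GSK343, against 0.385 and 0.406 RPKM with DMSO (log2 fold change 0.76 ± 0.13, adjusted p = 0.00247). These 3 had separate libraries. For Ifit1 and Rsad2 the levels were low, and only the GSK343 libraries reached 1 RPKM. Gbp2 was at 6.65 and 5.66 RPKM with GSK343, against 2.83 and 3.78 RPKM with DMSO (log2 fold change 0.74 ± 0.15, adjusted p = 0.00558). Zbp1 was at 87.1 and 84.9 RPKM with GSK343, against 59.7 and 46.6 RPKM with DMSO (log2 fold change 0.69 ± 0.11, adjusted p = 0.00126). Both were higher with GSK343 in each library, and the call for Gbp2 was lost without the first GSK343 library (adjusted p = 0.0641). Cmpk2 was at 3.96 and 3.93 RPKM with GSK343, against 2.04 and 2.13 RPKM with DMSO (log2 fold change 0.68 ± 0.13, adjusted p = 0.0038). Gbp3 was at 22.4 and 21.4 RPKM with GSK343, against 14.7 and 16.4 RPKM with DMSO (log2 fold change 0.47 ± 0.10, adjusted p = 0.00797). Neither overlapped between the treatments, and Gbp3 lost its call without either GSK343 library (adjusted p = 0.0784 and 0.0515). Without the first GSK343 library 3 members were called higher.

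Isg20 was at 226 and 232 RPKM with GSK343, against 367 and 338 RPKM with DMSO (log2 fold change -0.62 ± 0.08, adjusted p = 0.000366). Ifnar1 was at 12.5 and 9.96 RPKM with GSK343, against 17.1 and 16.6 RPKM with DMSO (log2 fold change -0.56 ± 0.12, adjusted p = 0.00817). Oasl1 was at 31.5 and 28.3 RPKM with GSK343, against 38.6 and 40.7 RPKM with DMSO (log2 fold change -0.40 ± 0.09, adjusted p = 0.0114). All were lower in both GSK343 libraries. Sp100 was the fourth lower member, at 19.4 and 17.6 RPKM with GSK343 and 24.2 and 23.2 RPKM with DMSO (log2 fold change -0.34 ± 0.10, adjusted p = 0.0306). Without the second GSK343 library only Isg20 of these 4 kept its call, and Ifnar1 had an adjusted p = 0.0895, Oasl1 0.131 and Sp100 0.219. Sp100 also lost its call without the first GSK343 library (adjusted p = 0.0759) or the first DMSO library (adjusted p = 0.0637). Ifnar2 was at 15.1 and 14.8 RPKM with GSK343, against 16.3 and 15.4 RPKM with DMSO, and was not called (log2 fold change -0.08 ± 0.10, adjusted p = 0.621). Stat2, Isg15 and Usp18 were not called (log2 fold change -0.37 ± 0.16, adjusted p = 0.14, log2 fold change -0.16 ± 0.08, adjusted p = 0.193, and log2 fold change 0.38 ± 0.19, adjusted p = 0.195). Isg15 was at 166 and 168 RPKM with GSK343 and 194 and 179 RPKM with DMSO, Stat2 at 5.64 and 3.78 RPKM with GSK343 and 6.38 and 6.15 RPKM with DMSO, and Usp18 at 8.73 and 5.60 RPKM with GSK343 and 6.04 and 4.37 RPKM with DMSO.

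**Figure D4:**
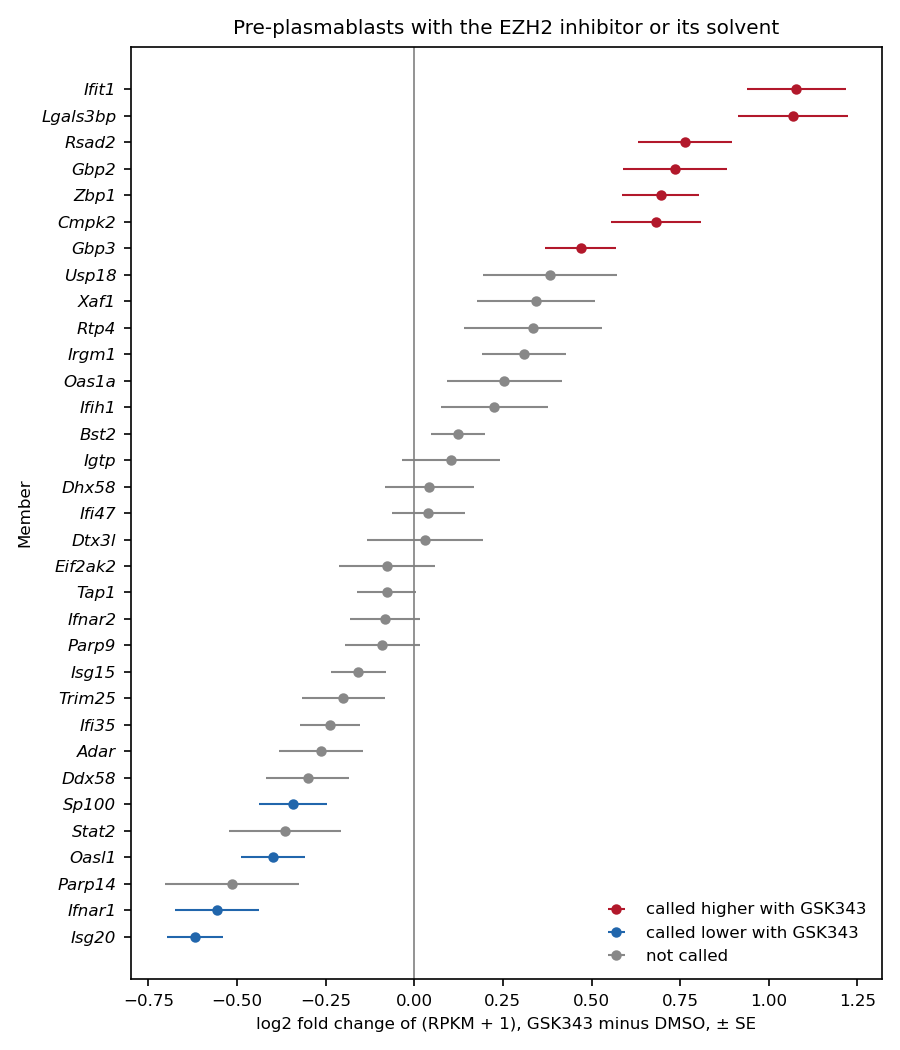
Log2 fold change with its SE (limma, horizontal axis) of the 33 tested members in pre-plasmablasts treated with GSK343 over those treated with DMSO. The 7 members called higher (red) run from 0.47 for Gbp3 to 1.08 for Ifit1 and the 4 called lower (blue) from -0.34 for Sp100 to -0.62 for Isg20.

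Of the 77 listed pathway genes tested in this experiment, 15 were higher and 7 lower with GSK343, against 12.7% and 5.86% of all genes tested. Without the first GSK343 library 8 were higher, and without the second 2 were lower. The highest were Ifitm2, a membrane protein that restricts viral entry (log2 fold change 1.75 ± 0.10, adjusted p = 2.19e-06), Ifitm1, Ms4a4c, Ifitm3 and Tdrd7, the last with 1.07 on the log2 scale. Ifitm2 was at 22.4 and 22.5 RPKM with GSK343 and 5.98 and 5.90 RPKM with DMSO. Ifitm1 was at 1.45 and 1.42 RPKM with GSK343 and 0.0911 and 0 RPKM with DMSO. Tlr9 was at 1.27 and 1.30 RPKM with GSK343 and 0.221 and 0.235 RPKM with DMSO. Ifitm1 and Tlr9 passed the filter only through the GSK343 libraries. The lowest were Irf7 (log2 fold change -0.69 ± 0.11, adjusted p = 0.00122), Irf5, Ly6a, Ticam1 and Daxx, the last with -0.32. Irf7 was at 32.9 and 26.7 RPKM with GSK343 and 50.4 and 46.4 RPKM with DMSO, with both GSK343 libraries lower. Irf9 was not called (log2 fold change -0.17 ± 0.09, adjusted p = 0.246). Markers of several other cell types differed with GSK343. The sum of 7 myeloid markers was 18.8 to 20.1 RPKM with GSK343 and 5.53 to 6.78 RPKM with DMSO, most of it Fcer1g with GSK343 and Tyrobp with DMSO. Tyrobp was not higher with GSK343, at 2.40 and 2.91 RPKM, against 2.96 and 3.49 RPKM with DMSO. Cd14 was at 2.08 and 1.60 RPKM with GSK343 and 0.307 and 0.423 RPKM with DMSO and Itgam at 0.518 and 0.470 RPKM with GSK343 and 0.147 and 0.154 RPKM with DMSO, and Lyz2 and Csf1r were at or under 0.261 RPKM. The sum of 6 T cell markers was 8.68 to 9.98 RPKM with GSK343 and 2.38 to 2.46 RPKM with DMSO, nearly all Lck, with Cd3e listed at 0 in all 4 libraries. The sum of 4 plasmacytoid dendritic cell markers was 14571 to 15720 RPKM with GSK343 and 5294 to 6513 RPKM with DMSO, nearly all Ly6d. Ccr9 was at 60.9 and 57.8 RPKM with GSK343 and 28.1 and 19.9 RPKM with DMSO, and the defining marker Siglech at or under 0.0639 RPKM. Tcf4 overlapped, at 18.7 and 16.2 RPKM with GSK343 and 17.7 and 21.8 RPKM with DMSO. The sum of 3 erythroid markers was 21.6 to 32.3 RPKM with GSK343 and 11.3 to 14.7 RPKM with DMSO, and that of 6 dendritic and natural killer cell markers was 14.9 to 15.1 RPKM with GSK343 and 18.4 to 20.2 RPKM with DMSO. Their part in the differences of the members was not tested.

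Plasma cells taken from mice have no group of the same table type to be tested against, so their levels are a description. In them 27 of the 42 members reached 1 RPKM in both libraries. The members at the highest levels were Bst2, at 285 and 306 RPKM, Isg20, at 221 and 239.6 RPKM, Lgals3bp, at 123 and 118.5 RPKM, Tap1, at 89.6 and 96.5 RPKM, and Zbp1, at 76.7 and 83.6 RPKM. Ifnar2 was at 42.6 and 44.7 RPKM and Ifnar1 at 16.1 and 16.6 RPKM, with little spread between the libraries. Ifit1, Ifit2, Ifit3, Ifih1, Oas1a, Oas2, Oasl2, Usp18, Rsad2, Mx1, Rtp4, Samd9l, Ifi44 and Parp12 were under 1 RPKM in both libraries. Ifit1 was at 0.194 and 0.179 RPKM, and Ifit3 is listed at 0 in the first library and at 0.0591 RPKM in the second. Isg15 was at 9.97 and 14.3 RPKM, Oasl1 at 1.04 and 0.610 RPKM, Usp18 at 0.893 and 0.962 RPKM and Stat2 at 19.2 and 18.3 RPKM. Of the RNA sensors Ddx58 was at 26.998 and 31.5 RPKM, while Dhx58 was at 4.76 and 5.07 and Ifih1 at 0.760 and 0.694 RPKM. Irf7 was at 25.5 and 24.4 RPKM. Of the 7 myeloid markers 6 reached 1 RPKM in at least 1 of these libraries, with a sum of 54.1 to 58.6 RPKM. The sum of 6 T cell markers was 10.5 to 15.8 RPKM, most of it Cd4, that of 3 erythroid markers 30.1 to 54.9 RPKM, most of it Hbb-b1, and that of 6 dendritic and natural killer cell markers 2.28 to 2.54 RPKM. The part of other cells in these levels was not tested.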

How the data were processed

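Polyadenylated RNA was sequenced from 7 groups of 2 libraries. The values are RPKM made by the authors. Those of activated B cells, pre-plasmablasts, Blimp1-deficient pre-plasmablasts and plasmablasts were also corrected for GC content, per the file headers and names. TopHat 1.4.1, HTSeq 0.5.3, DESeq 1.8.3 and the build mm9 are named in the submitters' processing notes. Which annotation was used, and whether strand entered the counting, is not given in the sources used here. The GC-normalized tables hold 11567 entries (126 with a repeated name, left out) and those of the inhibitor experiment 21025 (375 left out). For plasma cells, 5 counter summary names were dropped so that names and values align, and the letters NA are missing from names, so Ifnar1 and Ifnar2 were read there as IFR1 and IFR2.

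Genes with at least 1 RPKM in at least 2 libraries were tested on log2(RPKM + 1) with limma 3.58.1 in R 4.3.3 (moderated test with a mean-variance trend), all groups of a table type in 1 fit, and p-values were adjusted by Benjamini-Hochberg over all genes tested, with a threshold of 0.05. A ± after a log2 fold change is its SE from limma, with 2 libraries a group. The method was tested on simulated data. The number of reads behind a value is unknown, so no counting error is given. Named members are the receptor subunits, Stat2, Isg15 and Usp18, and up to 12 members per direction with the largest called change. Members and lists were chosen with earlier results of these data known. Library numbers of the 2 series pair the groups: deviations of same-series libraries from their group means correlated at r = 0.67 to 0.78 over 10473 genes in all 6 pairs of groups, and a fit with the series as a block was an alternative. Others were median-of-ratios scaling, a pseudocount of 0.1, no filter, no trend, only the groups compared, and each library left out. Promoter sequences came from RefSeq (GRCm38.p6). Tables were handled with Python 3.11.15 and pandas 2.3.3.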

Additional observations from a re-analysis of the deposited data

How the results depend on the processing

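Counts below are members called (limma, adjusted p below 0.05), or genes of the pathway list where named, and the cause of each change was not tested unless stated. The replicate block of the library series gave 13 higher and 11 lower members in Blimp1-deficient pre-plasmablasts against activated B cells, 30 higher against control pre-plasmablasts, 3 higher and 16 lower in plasmablasts against pre-plasmablasts, and 8 higher in pre-plasmablasts against activated B cells. For the pathway list the block gave 23 higher and 35 lower, 15 lower, and 6 higher and 22 lower in the first 3 of these comparisons. The shares of all genes called with the block stand with each comparison above. No paired fit was possible for GSK343 because its libraries carry no such series. A fit on only the groups compared gave 4 higher and 3 lower members against activated B cells (pathway list 5 higher), 5 pathway genes lower against control pre-plasmablasts, and 0 members and 0 pathway genes lower in plasmablasts against pre-plasmablasts. Scaling gave 8 higher members in pre-plasmablasts against activated B cells, 7 lower with GSK343, and 1 pathway gene lower in plasmablasts against pre-plasmablasts. A pseudocount of 0.1 gave 3 lower members in deficient pre-plasmablasts against activated B cells. Without a trend 3 pathway genes were lower with GSK343. Without a filter the GSK343 comparison had 0 calls in either list and direction. With entries at 0 in every library left out, an alternative chosen after seeing the data, 3 pathway genes were lower with GSK343. Of the members called in the main fit of that comparison, only Sp100 then lost its call (limma, adjusted p = 0.0689).

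With each library left out in turn, members called in pre-plasmablasts against activated B cells were 5 to 7 higher and 16 to 21 lower (pathway list 11 to 14 and 40 to 49). In plasmablasts against pre-plasmablasts they were 0 higher and 0 to 2 lower (0 and 0 to 1), and against activated B cells 3 to 6 higher and 25 to 27 lower (11 to 15 and 49 to 55). In deficient against control pre-plasmablasts they were 17 to 20 higher and 4 to 5 lower (36 to 43 and 3 to 6), and against activated B cells 3 to 7 and 1 to 4 (4 to 9 and 4 to 11). With GSK343 they were 3 to 9 and 1 to 5 (8 to 15 and 2 to 9). In plasma cells 27 to 28 members reached 1 RPKM.

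The direction turned in these uncalled differences (log2 fold changes, with the range over the libraries left out in turn). Ifnar1 in plasmablasts against activated B cells was 0.12 after scaling and -0.15 to 0.00 with a library left out, and against pre-plasmablasts -0.00 to 0.18. Ifnar2 in pre-plasmablasts against activated B cells was 0.03 after scaling and -0.30 to 0.14. Isg15 in deficient pre-plasmablasts against activated B cells was -0.21 to 0.70. Stat2 in plasmablasts against pre-plasmablasts was 0.07 after scaling and -0.20 to 0.19, and Usp18 was -0.09 to 0.17. Over the named members, leaving out a library kept 661 results, cost 116 their call, gave 5 a call and turned 10. The other alternatives kept 669, cost 36, gave 11 and turned 3. The depth in reads is unknown, which limits members near 1 RPKM, such as Ifit2, Ifit3 and Oas2 in control pre-plasmablasts.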
